A study of Mus musculus with 12 samples.

Results

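The genes of ileal bile acid handling were described in the ileum of mice on 4 diets: the apical uptake carrier Slc10a2, the cytosolic binding protein Fabp6, the basolateral exporters Slc51a, Slc51b and Abcc3, the apical efflux pump Abcc2, the bile acid receptor gene Nr1h4 and its outputs Fgf15 and Nr0b2. They were the 9 rows of the deposited expression table, of 44205 genes in all, whose gene name was 1 of these symbols. All 9 passed the filter on low values (0.5 RPKM or more in at least 3 libraries, reached by 17662 genes). RPKM is reads per kilobase of transcript and per M mapped reads, where M is 1000000.

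Bile acids made in the liver are taken back up by enterocytes of the distal ileum, which carry the sodium-dependent transporter ASBT (Slc10a2) on the apical side, the binding protein IBABP (Fabp6) in the cytosol and the heterodimeric exporter OST (Slc51a and Slc51b) on the basolateral side. Bile acids in the cell activate the nuclear receptor FXR (Nr1h4), which acts with its partner RXR, induces the binding protein and the exporter subunits, and raises the hormone FGF15 and the corepressor SHP (Nr0b2). FGF15 travels to the liver in portal blood and represses Cyp7a1, the rate-limiting enzyme of bile acid synthesis.

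The mice were C57BL/6, 16 weeks old, and had spent the last 10 weeks on their diet. HF_Sugar mice received a high-fat diet (60% of kilocalories from fat) with a 23% (w/v) sugar drink, which the study describes as sucrose solution. HF mice had the same high-fat diet with plain water, NF_Sugar mice a normal-fat diet with the sugar drink, and NF mice the normal-fat diet with plain water. Each group had 3 mice, drawn at random from samples with intact RNA, and 1 library per mouse was made from whole ileum tissue, so that fewer enterocytes and less RNA per enterocyte cannot be told apart. The RNA was that of the tissue, not of sorted cells.

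FXR with RXR binds an inverted repeat of the half-site AGGTCA with 1 base between the copies (AGGTCANTGACCT, which reads the same on both strands). RefSeq start-site windows of build GRCm38.p6, 250 bases before to 50 after the gene start, were found for 7 of the 9 genes, those other than Fgf15 and Abcc3. The gene start here is that of RefSeq, which can differ from the GENCODE positions given below. For Nr1h4 the 250 bases before it lie inside the GENCODE gene. For Slc10a2, Slc51b and Abcc2 they overlap the GENCODE gene in part, and the Slc51b match spans its GENCODE start. The best match in each was counted in mismatches to the repeat. Fabp6 had 2 windows with 2 mismatches, a closeness reached by 1.14% of the 32851 windows in the table. Slc51a and Slc51b each had 1 window with 3 mismatches, reached by 11.4% of all windows, and Slc10a2, Nr1h4, Nr0b2 and Abcc2 came no closer than 4, reached by 56.4%. The exact half-site on either strand was present in Slc51a, Slc51b, Nr1h4 and Abcc2, and in 16.3% of all windows. The 250 bases before the start of Fabp6 (chr11:43601563-43601812, minus strand), Slc51a (chr16:32487880-32488129, minus strand) and Slc51b (chr9:65422774-65423023, minus strand) are shown because these are the abundant genes with the closest matches, which are in capitals. A match is a description of the letters only.
Fabp6: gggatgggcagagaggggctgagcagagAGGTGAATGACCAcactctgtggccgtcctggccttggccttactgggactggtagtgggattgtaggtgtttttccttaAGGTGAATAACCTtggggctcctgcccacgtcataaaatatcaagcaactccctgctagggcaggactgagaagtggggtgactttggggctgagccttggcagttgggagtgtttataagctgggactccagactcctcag
Slc51a: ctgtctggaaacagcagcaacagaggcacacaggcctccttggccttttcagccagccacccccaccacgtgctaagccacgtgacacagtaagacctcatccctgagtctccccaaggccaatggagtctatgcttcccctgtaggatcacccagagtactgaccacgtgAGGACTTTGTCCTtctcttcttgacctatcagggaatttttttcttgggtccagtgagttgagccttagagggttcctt
Slc51b: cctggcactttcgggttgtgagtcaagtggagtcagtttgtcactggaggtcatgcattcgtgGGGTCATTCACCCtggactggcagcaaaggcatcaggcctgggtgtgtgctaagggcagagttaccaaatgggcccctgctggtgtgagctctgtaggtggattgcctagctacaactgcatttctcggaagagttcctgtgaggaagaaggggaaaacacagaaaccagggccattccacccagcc
The Fabp6 windows began 222 and 142 bases before the gene start, the Slc51a window 79 and the Slc51b window 187 bases before it.

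Library depth, recovered from the steps between low RPKM values, was 15.3 to 39.0 M reads. The first principal component (39.5% of variance) set 4 libraries apart, replicate 1 of NF_Sugar and replicate 2 of HF_Sugar, HF and NF, which is 1 library per group. Epithelial markers were present in every library (12 of 12 tested, summed level 6840 to 9830 RPKM) and 8 distal small intestine markers summed to 1770 to 2670 RPKM. The 8 proximal small intestine markers summed to 10.7 RPKM in HF replicate 2 and 354 RPKM in HF replicate 1 (Fabp1 281 RPKM of it), with Pdx1 and Onecut2 near 0 in all libraries. Lct (57.8 RPKM), Gata4 (5.02 RPKM) and Adh6a were also highest in HF replicate 1. For Lct and Gata4, HF replicate 3 came next, at 22.8 and 4.50 RPKM. Slc40a1 was lowest in HF replicate 1, and Cybrd1 lay inside the range of the others. As deposited, HF replicate 1 was also the lowest library for Slc10a2 (64.4 RPKM) and Nr1h4 (28.0 RPKM, beside 28.1 RPKM in HF replicate 2). A link to the proximal markers was not tested. Colon markers summed to 294 to 1580 RPKM. Of these, Car1 and Aqp8 were highest in NF replicate 3, at 241 and 12.0 RPKM, and at most 34.0 and 0.272 RPKM elsewhere. Ang4, also on that list, was at 109 RPKM or more in every library, so the sum does not measure colon tissue alone. It was at its lowest in NF replicate 3, as was the Paneth cell marker Lyz1, at 1058 RPKM. Liver markers stayed at 1.04 to 4.45 RPKM in sum, with Alb at or near 0, and pancreas acinar markers reached 26.4 RPKM in HF replicate 2 and at most 2.77 RPKM elsewhere.

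The order of the 9 genes by level was largely the same in every mouse. Fabp6 was the most abundant, followed by Slc51a, Slc51b and Slc10a2, in that order in 12 of 12 libraries, and Nr0b2 was the lowest in 12 of 12. Nr1h4, Fgf15, Abcc2 and Abcc3 shared places 5 to 8 and their order differed between libraries. By mean level Fabp6 was the 10th of the 17662 genes tested, and it was the highest of all genes in at least 1 library. Slc51a was the 97th, Slc51b the 250th, Slc10a2 the 646th, Nr1h4 the 1376th, Fgf15 the 1566th, Abcc2 the 6526th, Abcc3 the 6829th and Nr0b2 the 14950th. Together the 9 genes made up 0.634% to 2.40% of the summed RPKM of a library, mostly Fabp6 (0.512% to 2.13%).

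**Figure D1:**
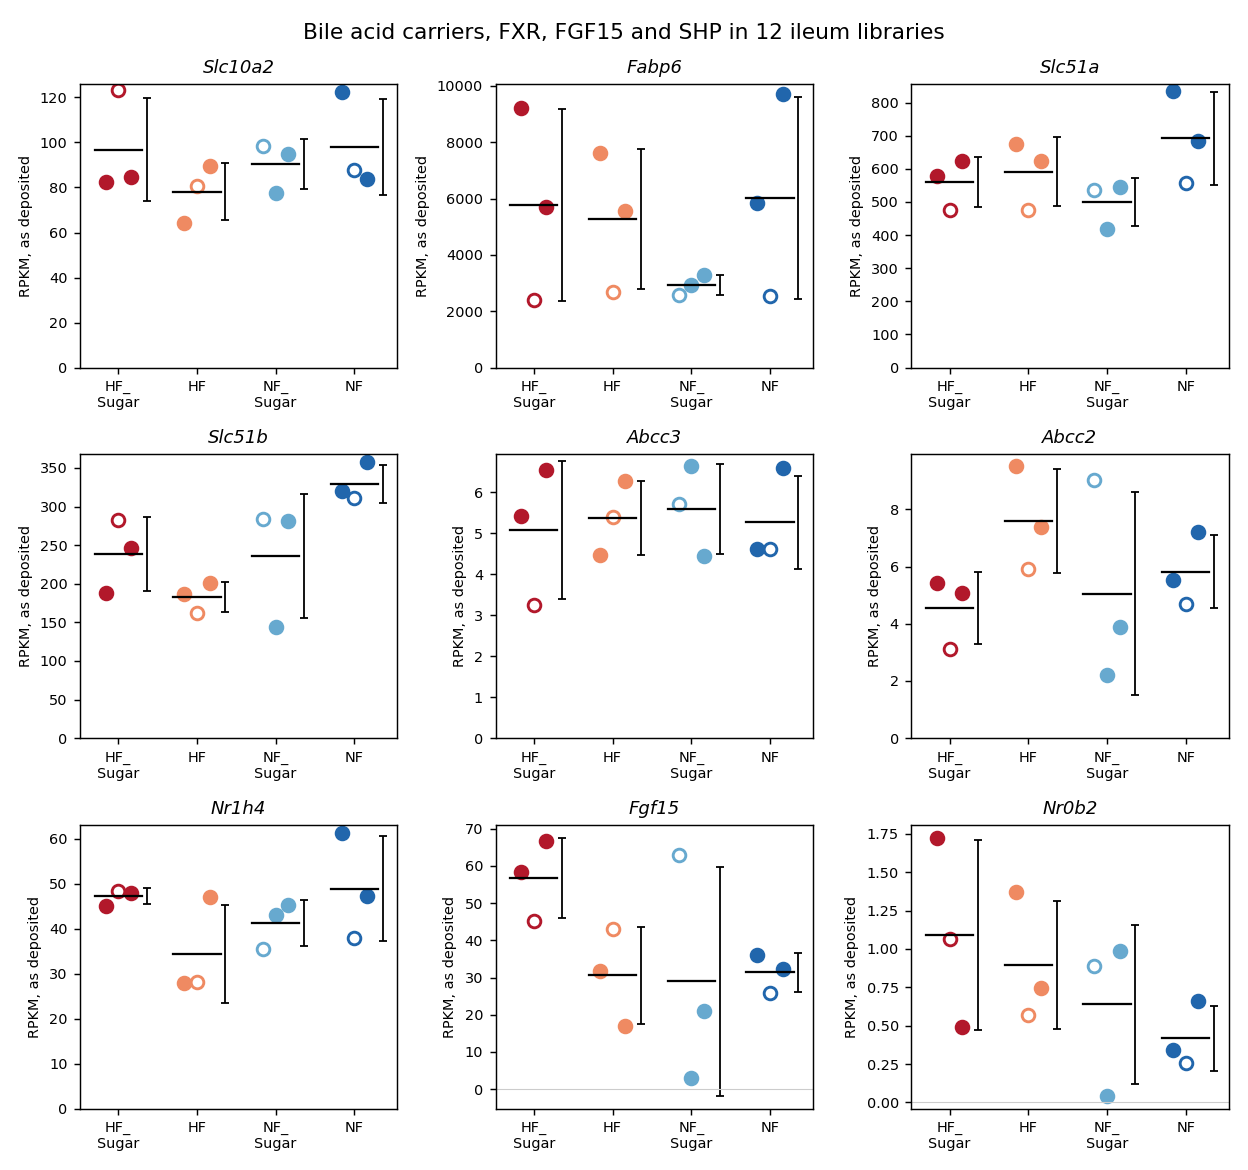
Level of each gene in RPKM as deposited (vertical axes from 0, a different scale per gene) in the 12 libraries, with HF_Sugar, HF, NF_Sugar and NF from left to right. Points are mice, open points the 4 libraries that stand apart, horizontal lines the group means and bars beside them ± SD (n = 3); Slc51b sits above 310 RPKM in the 3 NF mice and below 290 RPKM in the other 9, and Fgf15 above 45 RPKM in the 3 HF_Sugar mice.

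Slc10a2, the apical sodium-dependent bile acid transporter through which conjugated bile acids enter the enterocyte, was the steadiest of the abundant genes. It had 82.6, 123 and 84.6 RPKM in HF_Sugar mice, 64.4, 80.7 and 89.5 RPKM in HF mice, 98.6, 77.7 and 94.9 RPKM in NF_Sugar mice and 122, 87.9 and 83.7 RPKM in NF mice. The highest library was 1.91 times the lowest, and the 4 groups overlapped. The group means were 96.8 ± 22.9 RPKM in HF_Sugar, 78.2 ± 12.8 in HF, 90.4 ± 11.2 in NF_Sugar and 98.0 ± 21.2 in NF (SD, n = 3 each), so that no neighbours in this order differed beyond their spread. High fat against normal fat, averaged over both drinks, gave a log2 difference of -0.17 ± 0.19 (SE, limma), and sugar drink against water, averaged over both diets, 0.08 ± 0.19.

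Fabp6, which carries bile acids through the cytosol from the apical to the basolateral membrane, had 9226, 2415 and 5715 RPKM in HF_Sugar mice, 7627, 2677 and 5567 RPKM in HF mice, 2574, 2926 and 3282 RPKM in NF_Sugar mice and 5831, 2557 and 9713 RPKM in NF mice. All 3 NF_Sugar mice lay in the lower part of the range, and each other group had 1 low library and 2 high ones. The NF_Sugar mean was 2927 ± 354 RPKM against 6034 ± 3582 RPKM in NF (SD, n = 3 each), a log2 difference of -0.88 ± 0.55 (SE) that did not pass (limma adjusted p = 1) and was -0.55 without NF replicate 3 and -0.35 with the epithelial mean as a covariate.

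The 4 libraries lowest in Fabp6 as deposited were those that stand apart on the first principal component. NF_Sugar replicates 2 and 3, also low, do not stand apart. The 4 that stand apart held 2415 to 2677 RPKM of Fabp6, and the other 8 held 2926 to 9713 RPKM, so that the ranges did not overlap as deposited. After scaling they overlapped narrowly, with 2900 in NF replicate 2, which stands apart, and 2891 in NF_Sugar replicate 2, which does not. Fabp6 entered the components along with the other genes, so this is a description. For the other 8 genes the same ranges overlapped. Within the 8 libraries Fabp6 was 9226 and 5715 RPKM in HF_Sugar, 7627 and 5567 RPKM in HF, 2926 and 3282 RPKM in NF_Sugar and 5831 and 9713 RPKM in NF. There both NF_Sugar mice were below all 6 other mice, and NF_Sugar against NF was -1.27 ± 0.38 on the log2 scale (SE). The 4 libraries left out are the lowest in Fabp6 and include the low mouse of HF_Sugar, HF and NF. The wider gap therefore follows from what was left out and is no separate evidence.

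**Figure D2:**
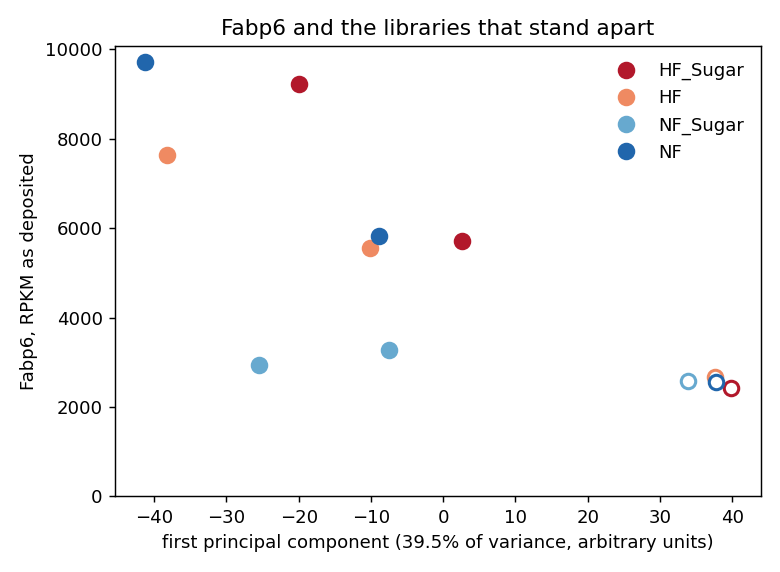
Fabp6 level (vertical axis, RPKM as deposited) against the first principal component of all genes tested (horizontal axis, arbitrary units), 1 point per library, coloured by group. The 4 open points at the right are the libraries that stand apart, all between 2415 and 2677 RPKM, while the 8 filled points run between 2926 and 9713 RPKM.

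Slc51b, which encodes the small subunit of the basolateral exporter, was the gene with the clearest separation of NF mice from the rest. It had 188, 283 and 246 RPKM in HF_Sugar mice, 186, 163 and 201 RPKM in HF mice, 284, 144 and 281 RPKM in NF_Sugar mice and 320, 310 and 357 RPKM in NF mice. Every mouse on high fat, sugar or both was below every NF mouse. The share of all genes that separate NF from all other mice in this way was not counted. The group means were 239 ± 47.8 RPKM in HF_Sugar, 183 ± 19.3 RPKM in HF, 236 ± 80.1 RPKM in NF_Sugar and 329 ± 24.7 RPKM in NF (SD, n = 3 each), and HF_Sugar, HF and NF_Sugar did not differ among themselves beyond their spread. These 3 comparisons share the NF mice.

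The size of the Slc51b difference was -0.91 ± 0.27 on the log2 scale in HF against NF (SE), with an unadjusted p of 0.00751 that ranked 67th of 17662 genes and did not pass after adjustment (limma adjusted p = 1). It was -0.55 ± 0.27 in HF_Sugar against NF and -0.57 ± 0.27 in NF_Sugar against NF. The exact two-sided permutation test gave p = 0.1 in each of the 3 pairs, the smallest p that 3 against 3 mice allow. Without NF_Sugar replicate 2, NF_Sugar against NF was -0.23. With the epithelial mean as a covariate, Slc51b was -0.82 in HF, -0.34 in HF_Sugar and -0.43 in NF_Sugar, each against NF.

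Over both drinks high fat gave -0.44 ± 0.19 for Slc51b (unadjusted p = 0.0449), and the exact permutation within each drink gave p = 0.105, where 0.005 is the smallest possible. Without 1 library the difference ran between -0.61 (NF_Sugar replicate 2 left out, exact permutation p = 0.015) and -0.34 (NF_Sugar replicate 1 left out), with exact p up to 0.235. That 0.015 is 1 of 4 values under 0.05 among 216 such tests without 1 library over the 9 genes and both effects. The interaction, high fat against normal fat with the sugar drink minus the same with water, was 0.93 ± 0.39 (unadjusted p = 0.0367, limma adjusted p = 1), and the means of the mice on sugar were 239 RPKM in HF_Sugar and 236 RPKM in NF_Sugar.

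Slc51a, the large subunit, needs Slc51b to reach the membrane. It had 580, 477 and 623 RPKM in HF_Sugar mice, 676, 474 and 623 RPKM in HF mice, 537, 417 and 545 RPKM in NF_Sugar mice and 836, 556 and 684 RPKM in NF mice. The 3 NF_Sugar mice were below the 3 NF mice, and the other groups overlapped NF. NF_Sugar averaged 500.0 ± 71.7 RPKM against 692 ± 140.2 RPKM in NF (SD, n = 3 each), a log2 difference of -0.49 ± 0.23 (SE, unadjusted p = 0.0599, limma adjusted p = 1). High fat over both drinks gave -0.08 ± 0.16, and sugar over both diets gave -0.28 ± 0.16 with an exact permutation p of 0.105. Without 1 library the sugar difference ran between -0.36 (HF replicate 2 left out, exact permutation p = 0.01) and -0.18 (NF replicate 1 left out), with exact p up to 0.225, and with the epithelial covariate it was -0.02. Without NF replicate 1, NF_Sugar against NF was -0.28.

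The ratio of Slc51a to Slc51b, examined after the values were seen, was 3.08, 1.69 and 2.54 in HF_Sugar mice, 3.63, 2.92 and 3.10 in HF mice, 1.89, 2.90 and 1.94 in NF_Sugar mice and 2.61, 1.79 and 1.92 in NF mice. All 3 HF mice were above the 3 NF mice. High fat over both drinks gave 0.36 on the log2 scale for the ratio, which did not pass (exact permutation within drinks, p = 0.11).

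Abcc3, the basolateral pump MRP3, which exports conjugated organic anions, was even across groups. It had 5.43, 3.25 and 6.55 RPKM in HF_Sugar mice, 4.46, 5.41 and 6.27 RPKM in HF mice, 5.70, 6.63 and 4.44 RPKM in NF_Sugar mice and 4.61, 4.61 and 6.59 RPKM in NF mice. All groups overlapped, with log2 differences of -0.10 ± 0.14 for high fat and -0.03 ± 0.14 for sugar (SE, limma).

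Abcc2, the apical pump MRP2, which returns conjugates to the lumen, had 5.44, 3.11 and 5.08 RPKM in HF_Sugar mice, 9.53, 5.91 and 7.38 RPKM in HF mice, 9.03, 2.21 and 3.89 RPKM in NF_Sugar mice and 5.53, 4.70 and 7.22 RPKM in NF mice. The 3 HF_Sugar mice were below the 3 HF mice, while NF_Sugar mice spread on both sides of NF mice. HF_Sugar averaged 4.54 ± 1.26 RPKM against 7.60 ± 1.82 RPKM in HF (SD, n = 3 each), a log2 difference of -0.65 ± 0.37 (SE, limma adjusted p = 1).

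Sugar over both diets gave -0.49 ± 0.26 for Abcc2 (exact permutation p = 0.115). Without 1 library the difference ran between -0.73 (NF_Sugar replicate 1 left out, exact permutation p = 0.005, the smallest that test can give) and -0.30 (NF_Sugar replicate 2 left out), with exact p up to 0.275. With the mean epithelial level as a covariate the sugar effect was 0.00 and HF_Sugar against HF was -0.18. That mean was 8.57 to 8.87 on the log2 scale in HF_Sugar mice, 8.74 to 8.94 in HF mice, 8.70 to 8.91 in NF_Sugar mice and 8.89 to 9.03 in NF mice, so HF_Sugar overlapped HF and lay below NF.

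Nr1h4, the gene of FXR, had 45.1, 48.4 and 47.9 RPKM in HF_Sugar mice, 28.0, 28.1 and 47.0 RPKM in HF mice, 35.6, 43.0 and 45.2 RPKM in NF_Sugar mice and 61.2, 38.0 and 47.3 RPKM in NF mice. Only HF had libraries under 30 RPKM, 2 of its 3, and its other mouse lay with the rest. HF averaged 34.4 ± 10.9 RPKM against 48.9 ± 11.7 RPKM in NF (SD, n = 3 each), a log2 difference of -0.57 ± 0.23 (SE, unadjusted p = 0.0339, limma adjusted p = 1), which was -0.35 without NF replicate 1. HF_Sugar averaged 47.2 ± 1.79 RPKM, close to NF, and HF_Sugar against HF was 0.48 ± 0.23. The interaction was 0.73 ± 0.33 (unadjusted p = 0.0519).

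Fgf15, the hormone that reports ileal bile acid load to the liver, had 58.5, 45.3 and 66.7 RPKM in HF_Sugar mice, 31.7, 43.0 and 17.1 RPKM in HF mice, 63.0, 2.98 and 21.1 RPKM in NF_Sugar mice and 36.2, 25.9 and 32.4 RPKM in NF mice. All 3 HF_Sugar mice were above all HF and all NF mice. NF_Sugar held both the lowest value of the 12 and the second highest. The group means were 56.8 ± 10.8 RPKM in HF_Sugar, 30.6 ± 13.0 in HF, 29.0 ± 30.8 in NF_Sugar and 31.5 ± 5.22 in NF (SD, n = 3 each).

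The HF_Sugar mean of Fgf15 was 1.81 times that of NF, 1.86 times that of HF and 1.96 times that of NF_Sugar. The fitted log2 differences were 0.76 ± 0.79 against NF, 0.94 ± 0.79 against HF and 1.64 ± 0.79 against NF_Sugar (SE, limma adjusted p = 0.99, 1 and 1), and the exact permutation p was 0.1 against NF and against HF and 0.4 against NF_Sugar. The SE, pooled over the 4 groups, carries the spread of the NF_Sugar mice. HF_Sugar against NF_Sugar was 0.55 without NF_Sugar replicate 2 and 2.61 without NF_Sugar replicate 1, and HF_Sugar against HF 0.56 without HF replicate 3. With the epithelial mean as a covariate HF_Sugar against NF was 1.68 and HF_Sugar against HF 1.5. High fat over both drinks gave 0.73 ± 0.56, with 0.19 without NF_Sugar replicate 2 and 1.22 without NF_Sugar replicate 1.

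Nr0b2, the gene of SHP, a corepressor that lacks a DNA-binding domain, was measured on few reads, 1 to 44 per library. It had 1.73, 1.06 and 0.488 RPKM in HF_Sugar mice, 1.37, 0.572 and 0.743 RPKM in HF mice, 0.891, 0.0437 and 0.984 RPKM in NF_Sugar mice and 0.340, 0.257 and 0.659 RPKM in NF mice. The lowest of these, NF_Sugar replicate 2, was 1 read. In HF_Sugar, HF and NF_Sugar alike, 2 of 3 mice each were above all NF mice. High fat over both drinks gave 0.37 ± 0.20 on the log2(RPKM + 1) scale, which understates changes at such low levels (unadjusted p = 0.0928, exact permutation p = 0.135). Without 1 library it ran between 0.22 (NF_Sugar replicate 2 left out) and 0.50 (HF_Sugar replicate 3 left out, exact permutation p = 0.03), with exact p up to 0.28.

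**Figure D3:**
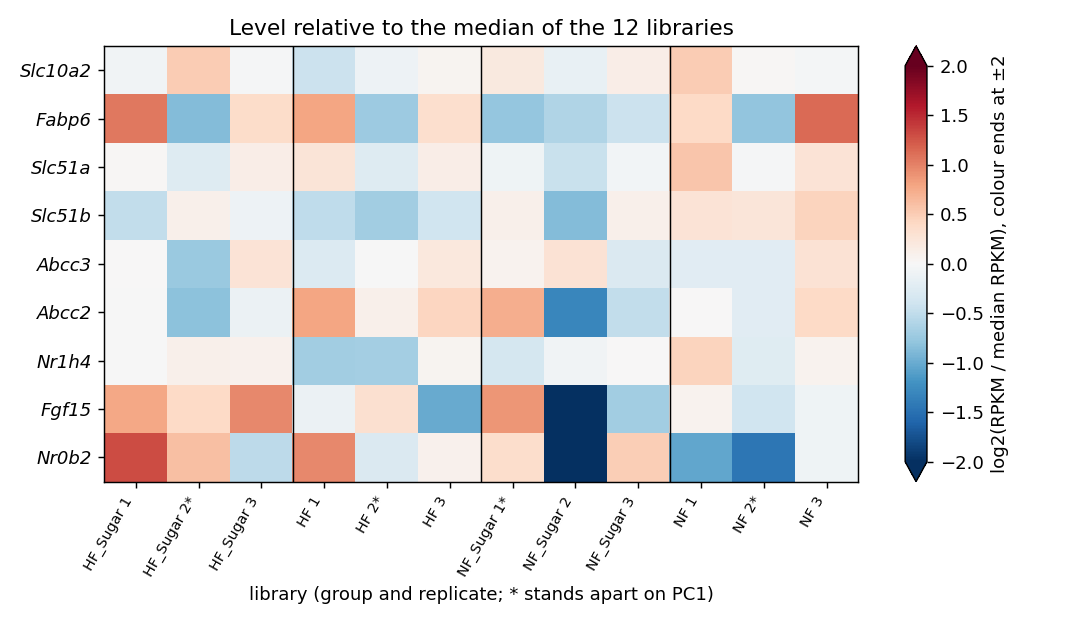
Level of each gene (rows) in each library (columns, groups separated by lines, HF_Sugar left and NF right) as log2 of RPKM over the median of the 12 libraries, with red above and blue below the median and colours ending at 2 in either direction. NF_Sugar replicate 2 is the bluest column, with Fgf15 at 2.98 RPKM and Nr0b2 at 0.0437 RPKM.

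NF_Sugar replicate 2 was the lowest of the 12 libraries for 5 of the 9 genes, Slc51a, Slc51b, Fgf15, Nr0b2 and Abcc2, before and after scaling, and it was the lowest for 11.0% of all genes tested with a value above 0 in every library. Its Fgf15 was 12.2-fold below the median of the other 11 libraries, which held at least 17.1 RPKM. Its Slc10a2 and Nr1h4 lay inside the range of the others (77.7 and 43.0 RPKM), and its Abcc3, 6.63 RPKM, was the highest of the 12, just above the 6.59 RPKM of NF replicate 3. The range of Fgf15 over the 12 libraries, 22.4-fold, was matched or passed by 1.80% of the 7098 genes with a mean of at least 5 RPKM.

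Other measures moved with that library. Its colon markers summed to 1580 RPKM (294 to 822 RPKM in the other 11), mostly Ang4 at 1252 RPKM, its smooth muscle markers to 1130 RPKM (404 to 908), its distal small intestine markers to 1770 RPKM (1970 to 2670) and its mature enterocyte markers to 2890 RPKM (3620 to 10700). Alpha-defensin genes took 29.2% of its summed RPKM, against 9.89% to 20.1% in the others. Their part in the low values was not tested. Of the other colon markers, Retnlb (36.1 RPKM) and Car4 (279 RPKM) were also highest in it, with at most 3.36 and 145 RPKM elsewhere. Car1 and Aqp8 were at 0.0397 and 0 RPKM in it. Hoxb13 was near 0 in every library (0.0673 RPKM in it, at most 0.131 RPKM in any), so it does not set this library apart.

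Across all genes, limma called none of the 9 in any of 8 contrasts at an adjusted p under 0.05. The background was as thin: 0% of 17662 genes were called in HF_Sugar against NF, HF against NF, NF_Sugar against NF, the fat effect, the sugar effect and the interaction, and 0.00566% (1 gene, the cytokine gene Il1b) in HF_Sugar against HF and in HF_Sugar against NF_Sugar. With the replicate number as a block the last 2 counts were 0. At an unadjusted p under 0.05 there were 2 of the 9 in HF against NF (Slc51b and Nr1h4), 1 each in the fat effect and the interaction (Slc51b) and 0 in the other 5 contrasts, and 290 to 750 of all genes per contrast.

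Counts of genes whose groups did not overlap were read against the same share over all genes. In HF_Sugar against NF this held for 2 of 9, Slc51b lower and Fgf15 higher (10.2% of all genes), and in HF against NF for 1, Slc51b lower (8.35%). In NF_Sugar against NF it held for 2, Slc51a and Slc51b, both lower (5.86%). In HF_Sugar against HF it held for 2, Fgf15 higher and Abcc2 lower (9.83%), and in HF_Sugar against NF_Sugar for 0 (5.93%). With counts this small, shares of 0 to 2 in 9 are near those backgrounds.

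Within the 8 libraries that do not stand apart, with 2 mice per group, Slc51b stayed lower in HF_Sugar, HF and NF_Sugar than in NF, and Fgf15 stayed higher in HF_Sugar than in NF and HF. Slc51a was lower there in the same groups as Slc51b. Fgf15 was also higher in HF_Sugar than in NF_Sugar there, where NF_Sugar replicate 1 (63.0 RPKM) is left out, and the pair overlapped over all 12 libraries. Of the 9 genes, 2 were higher and 4 lower without overlap in HF against NF (27.0% of all genes), and 6 lower in NF_Sugar against NF (29.2%). In HF_Sugar, 1 was higher and 3 lower against NF (38.0%), 1 higher and 2 lower against HF (38.4%), and 4 higher against NF_Sugar (34.0%). In HF_Sugar against NF the 9 genes had a median log2 difference of -0.13 (7 below 0), beside -0.02 over all genes. With the epithelial mean as a covariate, 5 of the 9 differences in that contrast changed sign (Slc10a2, Fabp6, Slc51a, Nr1h4 and Abcc2).

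**Figure D4:**
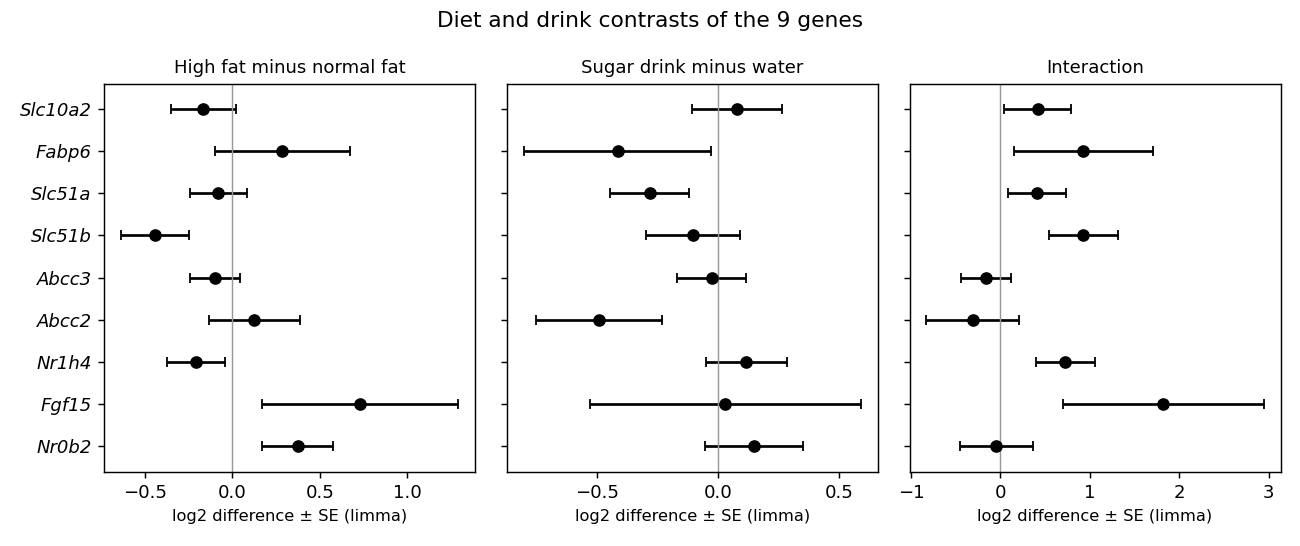
Log2 difference of each gene on the horizontal axes (points, with bars ± SE, limma) for high fat minus normal fat over both drinks, sugar drink minus water over both diets, and their interaction. Slc51b has the fat effect farthest from 0 in units of its SE (-0.44 ± 0.19), and Fgf15 the widest bars (0.73 ± 0.56).

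Pairs of genes that act together were compared over the 8 libraries. Slc51a and Slc51b gave r = 0.67 (exact permutation p = 0.0638, 0.255 adjusted over 4 pairs; Spearman's rho = 0.26, exact permutation p = 0.536), and without the 2 libraries farthest on Slc51a, NF replicate 1 and NF_Sugar replicate 2, r was -0.62, so the relation rests on those mice. Fgf15 and Nr0b2 gave r = 0.58 (exact permutation p = 0.128, adjusted 0.257; rho = 0.24, p = 0.582) and 0.39 without the 2 farthest. Nr1h4 and Fgf15 gave r = 0.12 (exact permutation p = 0.75, adjusted 0.848; rho = 0.24, p = 0.582) and 0.29 without the 2 farthest. Slc10a2 and Fabp6 gave r = -0.09 (exact permutation p = 0.848, adjusted 0.848; rho = -0.21, p = 0.619) and -0.29 without the 2 farthest. The Spearman p values adjusted over the 4 pairs were all 0.619.

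The genes with the most similar pattern over the 12 libraries, by Pearson's r of log2 values among 12880 genes, were named for each as a description, since all points share library and depth. Slc10a2 was most like Chd9 (r = 0.97), Piga and Nf2, Fabp6 like Cox6c (0.94), Acot9 and Strbp, and Slc51a like Vps41 (0.94), Sra1 and Usp2. Slc51b was most like Rab11a (r = 0.91), Igsf5 and Serpinb1a, Fgf15 like Kbtbd11 (0.92), Zbtb24 and Cpm, and Nr1h4 like Zdhhc13 (0.89), Gnaq and Slc29a4. Nr0b2 was most like Bst1 (r = 0.83), Fam160b1 and Egr3, Abcc2 like Scin (0.93), Epha1 and Car13, and Abcc3 like Hist1h3i (0.83), Nln and Tnfsf13. None of the 9 was among the 3 nearest of another.

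Other genes of the pathway gave no call in any contrast (limma). Of 13 bile acid sensors and partners 12 were tested, 6 above and 6 below 0 for high fat (median 0.00 beside -0.01 over all genes) and 4 above and 8 below for sugar (-0.03 beside -0.01). The liver X receptor gene Nr1h3 had -0.37 ± 0.13 for sugar and the constitutive androstane receptor gene Nr1i3 -0.28 ± 0.14, while for high fat Nr5a2 (LRH-1) had 0.20 ± 0.14, Nr1h2 0.16 ± 0.13 and the vitamin D receptor gene Vdr 0.12 ± 0.16. Rxra, the partner of FXR, averaged 33.3 ± 0.485 RPKM in HF_Sugar, 38.6 ± 3.87 in HF, 34.3 ± 2.41 in NF_Sugar and 34.3 ± 3.56 in NF (SD, n = 3 each). Klb, the coreceptor through which FGF15 acts on liver, was under the filter (at most 0.305 RPKM).

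Of 4 further genes known to depend on FXR in mouse ileum, 1 was above 0 and 3 were below for high fat (median -0.34 beside -0.01). The cytokine gene Il18 had -0.88 ± 0.29 for high fat (unadjusted p = 0.0124, limma adjusted p = 1), Nos2, the inducible nitric oxide synthase gene, -0.56 ± 0.30 and Car12, a carbonic anhydrase gene, 0.29 ± 0.19. Il18 averaged 5.14 ± 3.36 RPKM in HF_Sugar, 9.11 ± 4.48 in HF, 13.0 ± 4.24 in NF_Sugar and 11.3 ± 0.413 in NF (SD, n = 3 each). Il18 also responds to inflammation.

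Of 14 intestinal transcription factor genes all were tested, 9 above and 5 below 0 for high fat (median 0.02 beside -0.01) and 6 above and 8 below for sugar (-0.05 beside -0.01). Foxa1 had 0.15 ± 0.09 for high fat and 0.21 ± 0.09 for sugar, and Maf had -0.23 ± 0.11 for sugar. Gata4, which holds down ileal bile acid genes in the proximal small intestine of mice, was at 1.20 ± 1.02 RPKM in HF_Sugar, 3.38 ± 2.39 in HF, 2.10 ± 1.57 in NF_Sugar and 2.46 ± 0.485 in NF (SD, n = 3 each).

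Of 13 other organic anion and drug carriers 12 were tested, 9 above and 3 below 0 for high fat (median 0.06 beside -0.01) and 4 above and 8 below for sugar (-0.02 beside -0.01). The multidrug pump genes Abcb1a and Abcb1b had -0.73 ± 0.33 and -0.37 ± 0.18 for sugar, and Abcc5 and Abcc6 0.23 ± 0.13 and 0.23 ± 0.18 for high fat. Of 10 genes of bile acid synthesis, conjugation and liver transport, 2 were tested. Cyp27a1, a sterol 27-hydroxylase also expressed outside liver, had -0.54 ± 0.26 for sugar and Baat, which conjugates bile acids, -0.17 ± 0.16. Cyp7a1 reached at most 0.0298 RPKM in any ileum.

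Of 8 bile acid detoxification genes 7 were tested, 3 above and 4 below 0 for high fat (median -0.03 beside -0.01) and 0 above and 7 below for sugar (-0.31 beside -0.01), none past the test. For sugar Ugt1a1, a glucuronosyltransferase gene, had -0.31 ± 0.18 (unadjusted p = 0.104) and Ugt2b36 -0.27 ± 0.16. For high fat Cyp3a13 had -0.34 ± 0.27, Cyp3a25 0.27 ± 0.37 and the sulfotransferase gene Sult2b1 -0.18 ± 0.21.

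By GENCODE M21 positions on build GRCm38 (mm10), Slc10a2 lies at chr8:5083219-5105351, Fabp6 at chr11:43596049-43601540, Slc51a at chr16:32474504-32487879, Slc51b at chr9:65412714-65422955, Abcc3 at chr11:94343295-94392997 and Nr1h4 at chr10:89454234-89533585, all on the minus strand. Abcc2 at chr19:43782192-43840740, Fgf15 at chr7:144896531-144900953 and Nr0b2 at chr4:133553376-133556536 are on the plus strand. Slc51a shares 17.7% of its exon bases with Pcyt1a, Slc51b 12.8% with Rasl12 and Fgf15 24.9% with the antisense gene Gm26793, each on the opposite strand. Whether reads were counted by strand is not given in the sources used here, so reads in those stretches cannot be told apart. The overlapping genes were low, at 9.14 to 18.3 RPKM for Pcyt1a, 1.23 to 3.62 RPKM for Rasl12 and 0.0758 to 0.856 RPKM for Gm26793, beside 417 to 836, 144 to 357 and 2.98 to 66.7 RPKM for their partners. The other 6 genes overlap none. The RPKM of those 6 came out as whole reads in all 12 libraries with GENCODE M21 exon lengths, and those of Slc51a, Slc51b and Fgf15 did not, so what was counted for these 3 is less certain.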

How the data were processed

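RNA of ileum tissue from 12 mice was sequenced, 1 library per mouse. Per the paper's methods, mRNA was isolated from the total RNA and depleted of ribosomal RNA. The authors sequenced on the Ion Proton and used STAR, run from Partek Flow, against build mm10. The deposited values are RPKM, which the authors computed per gene, and 12 of 12 per-sample files equalled their column of the series table. Low RPKM values stepped by whole reads (85.8% to 87.7% within 0.03 reads), which gave the depth of each library, though Slc51a, Slc51b and Fgf15 did not come out as whole reads in all 12 libraries with the exon lengths used. The use of strand in counting is not given in the sources used here.

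Of 44231 names, 26 bare numbers were left out. Scaling used TMM factors (30% of ratios and 5% of mean levels trimmed), and log2(RPKM + 1) of the 17662 genes with at least 0.5 RPKM in 3 libraries was fitted with limma 3.58.1 (R 4.3.3, trend, 8 residual degrees of freedom, 4 group means, no block). Fold changes on that scale understate changes of low genes. P values were adjusted by Benjamini-Hochberg over all genes tested in each contrast, with calls under 0.05. Single genes also had two-sided exact permutation tests (Python 3, scipy), over the labels of a pair or within each drink or diet (400 arrangements). Levels are RPKM as deposited. The p values of differences set them against the spread between mice, which limma pools over the 4 groups. Those of the gene pairs permute 8 libraries over all diets, so differences between diets enter them too.

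The members and gene lists were chosen with earlier results of these data known. Named genes were the 9 members, the 3 genes most correlated with each, and of each pathway list the 3 tested genes with the smallest unadjusted p for fat and the 2 for sugar. Some genes under this rule are not reported here. Rxra, Klb, Gata4 and Cyp7a1 were added for their roles. Deviations of same-numbered libraries correlated above 0.1 in all 3 pairs for HF_Sugar with NF (0.195 to 0.511) and for HF_Sugar with HF (0.129 to 0.557) and not for the other pairs, and the labels tie no animals together by number. The fit was tested on simulated data. Alternatives were deposited RPKM without scaling, median-of-ratios scaling, other filters and pseudocounts, a replicate block, the compared groups alone, leaving out or adjusting for the 4 libraries that stand apart, an epithelial covariate and leaving out each library.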

Additional observations from a re-analysis of the deposited data

How the results depend on the processing

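None of the 9 genes was called by limma under any of the 11 other settings or the 12 fits without 1 library (smallest adjusted p 0.572 over 46 differences). The replicate block gave the same member differences, and 0 genes called in HF_Sugar against HF and in HF_Sugar against NF_Sugar. Counts of called genes without a filter were 5 in HF_Sugar against NF, 4 in HF against NF, 4 in NF_Sugar against NF and 0 in HF_Sugar against HF and HF_Sugar against NF_Sugar. In those last 2 contrasts the count was also 0 with a mean of at least 5 RPKM, a pseudocount of 0.1, the 2 groups alone, the 4 libraries that stand apart left out or as a covariate, the epithelial covariate, or the study's thresholds (adjusted p under 0.01 and 2-fold), and in HF_Sugar against NF_Sugar without scaling or with median-of-ratios scaling. Leaving out 1 library gave 0 to 1 calls in HF_Sugar against NF, HF against NF, NF_Sugar against NF, HF_Sugar against NF_Sugar, the sugar effect and the interaction, and 0 to 2 in HF_Sugar against HF. The cause was not tested.

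Some differences, none of them called, changed sign. With the epithelial covariate, HF_Sugar against NF gave 0.11 for Slc10a2, 0.66 for Fabp6, 0.05 for Slc51a, 0.06 for Nr1h4 and 0.40 for Abcc2, the fat effect 0.07 for Slc51a, and the sugar effect 0.09 for Fabp6 and 0.03 for Slc51b. Without the 4 libraries that stand apart, Abcc3 gave 0.09 in HF_Sugar against NF, 0.03 in the fat effect, 0.06 in the sugar effect (0.05 in the permutation test) and 0.12 in the interaction, Slc51a 0.05 in the fat effect, Slc10a2 -0.06, Fgf15 -0.27 (-0.28 in the permutation test) and Nr0b2 -0.03 in the sugar effect, and Nr0b2 0.02 and Abcc2 0.26 in the interaction. With a pseudocount of 0.1 the Fgf15 sugar effect was -0.01 and the Nr0b2 interaction 0.08. Without 1 library, HF_Sugar against NF ran between -0.30 and 0.14 for Slc10a2, -0.59 and 0.37 for Fabp6, -0.20 and 0.14 for Nr1h4 and -0.25 and 0.09 for Abcc3, and NF_Sugar against NF between -1.85 and 0.21 for Fgf15. The fat effect ran between -0.15 and 0.02 for Slc51a, -0.07 and 0.37 for Abcc2 and -0.18 and 0.01 for Abcc3. The sugar effect ran between -0.03 and 0.19 for Slc10a2 (from -0.04 in the permutation test), -0.21 and 0.06 for Slc51b, -0.45 and 0.58 for Fgf15 and -0.10 and 0.08 for Abcc3 (from -0.09), and the interaction between -0.35 and 0.20 for Nr0b2, -0.70 and 0.18 for Abcc2 and -0.32 and 0.06 for Abcc3. Depth limits Nr0b2, with 1 to 44 reads per library.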
